A study of Mus musculus with 9 samples.

Results

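The genes described here encode 9 matrix enzymes of the tricarboxylic acid cycle, measured as mRNA in mouse gastrocnemius, the large calf muscle. They are citrate synthase (Cs), a subunit of the NAD-dependent isocitrate dehydrogenase (Idh3a), the NADP-dependent isocitrate dehydrogenase (Idh2), 2 components of the oxoglutarate dehydrogenase complex (Ogdh and Dlst), the alpha subunit and the GTP-forming beta subunit of succinyl-CoA ligase (Suclg1 and Suclg2), fumarase (Fh1) and malate dehydrogenase (Mdh2). They were taken by gene symbol, not by their values, and succinate dehydrogenase, which sits in the inner membrane, was kept out. All 9 were among the 15372 genes tested.

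By its title, the study asked how agonists of the androgen receptor act on muscle in preclinical Duchenne muscular dystrophy models. Polyadenylated RNA was sequenced in 3 groups of 3 libraries. The first group was wildtype on vehicle, the second mdx on vehicle, and the third mdx on GTx-026, one such agonist, injected under the skin at 10 mg/kg. A premature stop in the dystrophin gene Dmd, present in every cell, defines the mdx mouse, and the strain label of all 3 groups is C57BL/6. Ages, sex and length of treatment are not given in the sources used here, and the labels do not say which animal gave which library. The p-values thus set differences between groups against the spread of libraries within groups, and that spread may be technical.

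The cycle burns acetyl-CoA, made from pyruvate and from fatty acids, and hands the electrons to the respiratory chain. Citrate synthase joins acetyl-CoA to oxaloacetate, and the 2 decarboxylating steps that follow, by isocitrate dehydrogenase and by oxoglutarate dehydrogenase, yield NADH and CO2. Succinyl-CoA ligase then makes a nucleoside triphosphate, and fumarase and malate dehydrogenase return the carbon to oxaloacetate. In muscle these enzymes are more abundant in oxidative fibres than in fast glycolytic ones.

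Levels are given as CPM, the share of a gene among the listed reads of its library, counted per M (mega) reads after rescaling. One gene can have several sequence records that share reads, so levels are compared between libraries and not between genes. The libraries held 25.1 to 38.0 M listed reads, and the least abundant value of any member was 37.8 CPM (Suclg2 in mdx vehicle library 1). Summed markers of muscle fibres lay between 140479 and 254795 CPM in all 9 libraries, beside a tissue label of gastrocnemius. Dmd, the gene mutated in mdx, was at 41.4, 60.0 and 51.0 CPM in the wildtype libraries, against 11.4, 21.7 and 21.7 CPM in mdx vehicle and 17.5, 14.2 and 18.0 CPM in mdx GTx-026. One library, mdx vehicle 1, was unlike the others. Across genes, which are not independent, it correlated with its own group at a median of 0.945, and the 8 other libraries did so at 0.959 to 0.983. Its rescaling factor was 1.30, against 0.874 to 1.08 in the others. The comparisons are therefore given with and without it.

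The upstream sequences shown here are those of the gene whose level separated mdx from wildtype (Suclg2), of the gene of the alternative subunit of the same enzyme (Sucla2), and of the member that varied most between libraries (Idh2). They are the 250 bases before the start of the gene in RefSeq's promoter table (GRCm38.p6), printed 5′ to 3′ on the strand of the gene. Capitals mark GC boxes (GGGCGGG, or CCCGCCC on the other strand) and CCAAT boxes (CCAAT, or ATTGG on the other strand). The Suclg2 window is chr6:95718847-95719096 on the minus strand, the Sucla2 window chr14:73552536-73552785 on the plus strand and the Idh2 window chr7:80115351-80115600 on the minus strand.
Suclg2: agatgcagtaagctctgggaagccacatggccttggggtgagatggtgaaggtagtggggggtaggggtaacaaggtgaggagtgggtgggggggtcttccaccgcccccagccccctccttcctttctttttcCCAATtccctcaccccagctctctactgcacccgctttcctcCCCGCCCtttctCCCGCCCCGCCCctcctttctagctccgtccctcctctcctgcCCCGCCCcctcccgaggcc
Sucla2: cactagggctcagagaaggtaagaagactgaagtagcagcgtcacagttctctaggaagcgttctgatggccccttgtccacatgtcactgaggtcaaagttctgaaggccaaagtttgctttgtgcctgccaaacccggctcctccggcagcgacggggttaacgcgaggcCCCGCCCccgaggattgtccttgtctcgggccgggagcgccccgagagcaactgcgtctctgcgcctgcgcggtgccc
Idh2: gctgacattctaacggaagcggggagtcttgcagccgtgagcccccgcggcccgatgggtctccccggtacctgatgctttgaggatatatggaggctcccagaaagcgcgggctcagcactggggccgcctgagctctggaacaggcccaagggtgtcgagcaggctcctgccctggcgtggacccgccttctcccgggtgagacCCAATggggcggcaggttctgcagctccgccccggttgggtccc

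The Suclg2 window held 4 GC boxes, of which a pair overlaps, and 1 CCAAT box. Sucla2 had 1 GC box and no CCAAT box, and Idh2 had 1 CCAAT box and no GC box. The Idh2 window lies inside the annotated span of its gene, and the Suclg2 window overlaps the end of its gene's span. Of the members, 8 had a window in the table; Idh3a did not. A GC box was found in 5 of these 8 (Cs, Fh1, Mdh2, Ogdh and Suclg2), against 23.4% of all 32851 windows of the same length, and a CCAAT box in 5 (Cs, Fh1, Idh2, Ogdh and Suclg2), against 33.9%. The cAMP response element TGACGTCA was found for Mdh2 and Ogdh, and in 1.55% of all windows. None of the 8 windows held TCAAGGTCA, the element of oestrogen-related receptors (0.387% of all windows), or the ETS site CCGGAAG (6.91%), each searched on both strands. A match here is a run of letters and not a bound site.

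Citrate synthase, the entry enzyme, was at 688, 852 and 969 CPM in wildtype libraries 1 to 3 and at 457, 757 and 622 CPM in mdx vehicle libraries 1 to 3. In mdx GTx-026 libraries 1 to 3 it was at 736, 726 and 768 CPM. The mdx vehicle library 1 was lowest and the wildtype library 3 highest, and all 3 groups overlapped. These extremes held for 8 of the 9 members, as the plot of levels by library shows. In bulk tissue, fewer fibres of a kind and less of the mRNA in each fibre cannot be told apart, for Cs or any other member. The Cs gene lies on chromosome 10, from 128337727 to 128362482 (GRCm38.p6), and shared 2.01% of its 50-base transcript words with the related gene Csl.

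**Figure D1:**
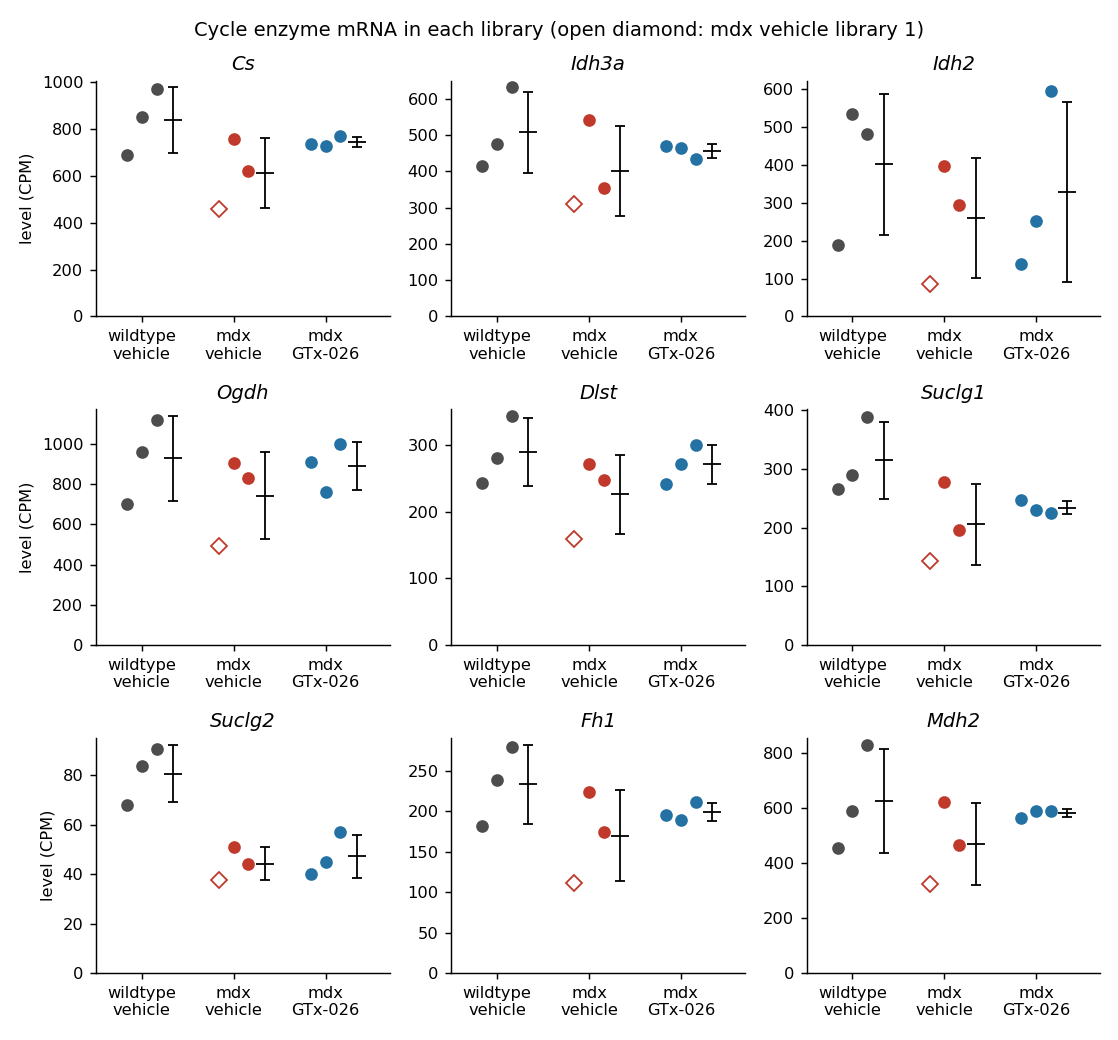
The level of each of the 9 enzymes in CPM (vertical axes from 0) by group, with a point for each library in the order 1 to 3 and the mean ± SD of the 3 libraries beside it. The open diamond is mdx vehicle library 1, which was lowest of all 9 libraries for every enzyme; the groups are apart for Suclg2, where wildtype libraries lay at 68.0 to 90.6 CPM and mdx vehicle libraries at 37.8 to 51.0 CPM.

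Idh3a (chromosome 9, 54586511 to 54604662), the catalytic subunit of the NAD-dependent isocitrate dehydrogenase, was at 416, 475 and 632 CPM in wildtype. In mdx vehicle it was at 309, 542 and 353 CPM, and in mdx GTx-026 at 471, 465 and 434 CPM. The treated libraries lay inside the wildtype range, and the mdx vehicle libraries spread to both sides of them.

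Idh2 (chromosome 7, 80094845 to 80118608), which makes NADPH in the matrix, varied far more than the other members. It was at 188, 534 and 481 CPM in wildtype, at 86.1, 397 and 295 CPM in mdx vehicle and at 137, 253 and 596 CPM in mdx GTx-026. Its highest library, mdx GTx-026 library 3, was 6.92 times its lowest, while that ratio was 2.04 to 2.73 for the other members. High and low libraries were found in every group.

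Ogdh (chromosome 11, 6291597 to 6359094) is the first and Dlst (chromosome 12, 85110822 to 85134091) the second component of the oxoglutarate dehydrogenase complex. Ogdh was at 702, 961 and 1120 CPM in wildtype, at 495, 904 and 830 CPM in mdx vehicle and at 909, 763 and 999 CPM in mdx GTx-026. Dlst was at 244, 280 and 345 CPM in wildtype, at 160, 272 and 247 CPM in mdx vehicle and at 242, 272 and 301 CPM in mdx GTx-026. For both genes 1 library, mdx vehicle 1, lay well under all others, and the remaining 8 overlapped across groups. The 10 records of Ogdh gave differences between mdx vehicle and wildtype from −0.38 to −0.28 on the log2 scale. Because records can share reads, their likeness is no check of the value.

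Suclg1 (chromosome 6, 73248505 to 73276907), the alpha subunit shared by both forms of succinyl-CoA ligase, was at 265, 290 and 388 CPM in wildtype. In mdx vehicle it was at 142, 278 and 196 CPM, and in mdx GTx-026 at 247, 229 and 226 CPM. The treated libraries all lay below the wildtype ones, and 1 mdx vehicle library lay within the wildtype range. Suclg2 (chromosome 6, 95473009 to 95718858), the beta subunit that makes the enzyme form GTP, was at 68.0, 83.7 and 90.6 CPM in wildtype. It was at 37.8, 51.0 and 44.1 CPM in mdx vehicle and at 40.1, 45.0 and 57.1 CPM in mdx GTx-026. All 6 mdx libraries lay below all 3 wildtype libraries, and the treated and untreated mdx libraries overlapped. Suclg2 shared 16.0% of its 50-base transcript words with the processed pseudogene Gm15163, so some of its reads may not have been placed for certain. How such reads were treated was not examined.

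Fh1 (chromosome 1, 175601378 to 175625635), fumarase, was at 182, 239 and 279 CPM in wildtype, at 112, 224 and 175 CPM in mdx vehicle and at 196, 189 and 212 CPM in mdx GTx-026. Mdh2 (chromosome 5, 135778649 to 135790386), the mitochondrial malate dehydrogenase, was at 456, 591 and 830 CPM in wildtype, at 324, 622 and 465 CPM in mdx vehicle and at 565, 591 and 589 CPM in mdx GTx-026. In both the treated libraries were close together inside the wildtype range.

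The comparison of mdx vehicle against wildtype vehicle asks what the mdx mutation changed. Every one of the 9 enzymes had a lower mean in mdx vehicle, under the rescaling used here and under both others tried. Under the rescaling used here 48.9% of all genes were lower. The largest difference was that of Suclg2, from 80.8 ± 11.6 to 44.3 ± 6.61 CPM, followed by Idh2, from 401 ± 186 to 260 ± 159 CPM, and Suclg1, from 314 ± 65.3 to 205 ± 68.3 CPM (SD, n = 3 each). The median log2 fold change of the 9 was −0.47, beside 0.0088 over all tested genes. By limma with Benjamini-Hochberg adjustment over all genes 0 of the 9 passed the threshold of 0.05, and 0.338% of all genes did. At an unadjusted p under 0.05 there were 2 (Suclg1 and Suclg2), and 6.36% of all genes were lower at that level. Of the 9, only Suclg2 had groups that did not overlap, where 8.49% of all genes were lower without overlap.

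Suclg2 had a log2 fold change of −0.85 (SE 0.18, 95% interval −1.25 to −0.45), lower in 3 of 3 libraries (limma, unadjusted p = 0.000831, adjusted p = 0.112). Its adjusted p ran from 0.0419 to 0.437 over 20 alternative settings and passed in 1, where no filter on low values was used. Suclg1 followed with −0.65 (SE 0.24, adjusted p = 0.325). Idh2 had −0.75 with an interval of −2.26 to 0.76, so its mean difference was within the spread of its libraries. The 6 other members had log2 fold changes from −0.49 (Fh1) to −0.34 (Ogdh) with adjusted p values of 0.421 (Cs) or higher. The changes are on the log2(CPM + 1) scale, on which the pseudocount is small beside these levels.

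**Figure D2:**
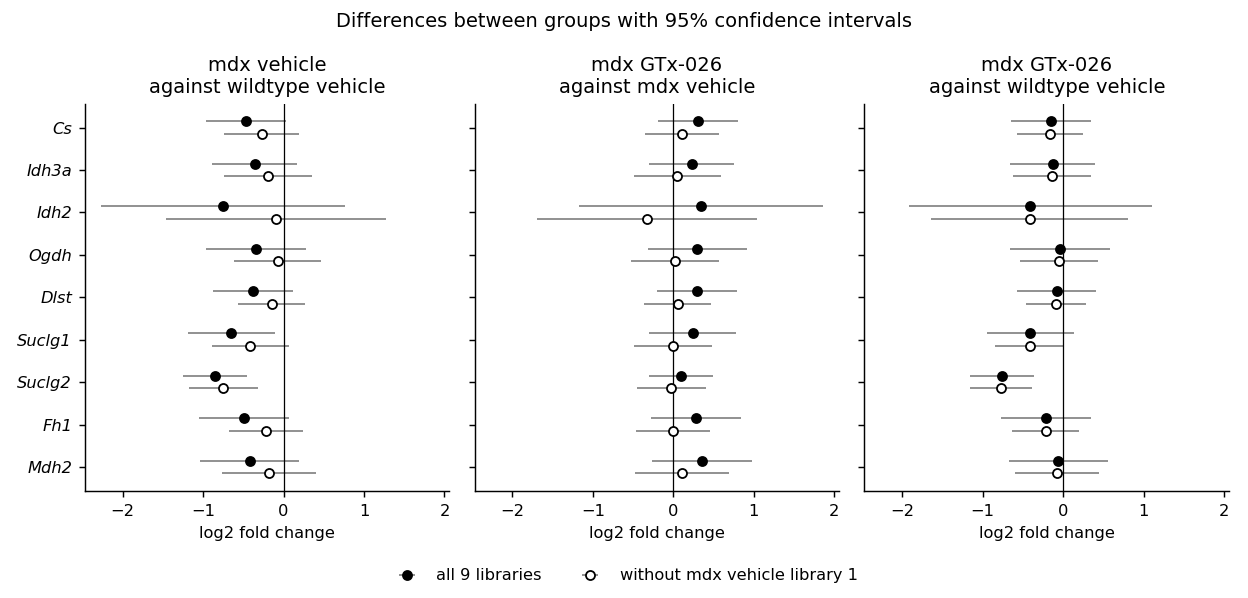
Log2 fold changes on log2(CPM + 1) (horizontal axes) of the 9 enzymes in the 3 comparisons, with 95% confidence intervals from limma; filled points are fits of all 9 libraries and open points fits without mdx vehicle library 1. The interval of Suclg2 lies below 0 in both comparisons with wildtype, and the points of mdx GTx-026 against mdx vehicle move towards 0, or below it for Idh2 (−0.33), when that library is left out.

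Without mdx vehicle library 1 the median of the 9 in mdx vehicle against wildtype was −0.19, and all 9 means were still lower. Under the same fit 50.7% of all genes were lower and 0.371% passed the threshold, none of them a member. Suclg2 moved little, to −0.75 (SE 0.19, limma adjusted p = 0.195), and its groups still did not overlap, where 12.3% of all genes were lower without overlap. Suclg1 had −0.41 (SE 0.21) and Cs −0.27 (SE 0.20). Idh2 went from −0.75 to −0.09, Ogdh from −0.34 to −0.07, Dlst from −0.38 to −0.15, Fh1 from −0.49 to −0.22 and Mdh2 from −0.42 to −0.18. For these 5 genes most of the difference was there only with library 1 included. The authors' own scaling gave a median of −0.29 for the 9 with all libraries, where the median of all genes shifted to 0.15; relative to all genes the 9 were at −0.44, against −0.475 under the scaling used here. The genes called were 30 higher and 12 lower under the authors' scaling, against 29 higher and 23 lower under the scaling used here.

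Other tissue markers differed between libraries as well. In mdx vehicle libraries 1 to 3 the 9 enzymes lay at a median log2 difference of −0.91, −0.04 and −0.39 from the wildtype mean. The 10 genes of slow and oxidative fibres (all 10 measured, among them Myh2, the myosin of fast oxidative fibres; in what follows the slow-fibre genes) lay at −3.04, 1.36 and 0.78, and their summed level was 594 CPM in mdx vehicle library 1 against 1857 to 19842 CPM in the 8 others. The macrophage markers lay at 2.57, 0.44 and 2.12 (13 of 15 with values). Their summed level was 52.3 to 147 CPM in wildtype, 156 to 1193 CPM in mdx vehicle and 440 to 689 CPM in mdx GTx-026. Ptprc and Adgre1 had no values used here. Lgals3, the gene of the macrophage lectin galectin-3, rose in mdx vehicle (log2 fold change 3.81, limma adjusted p = 0.0336) and in mdx GTx-026 (3.81, adjusted p = 0.0161) against wildtype. In mdx GTx-026 the complement gene C1qc (1.94), the fibro-adipogenic marker Pdgfra (1.11), the embryonic myosin light chain Myl4 (2.78) and the globin gene Hbb-b1 (3.60) also rose, with limma adjusted p values of 0.0463 or lower. In that comparison 13 of 13 macrophage and 10 of 10 fibroblast and fibro-adipogenic markers were higher, with 2 and 1 called. Of all genes 1.48% were called in either direction. Of the endothelial markers 9 of 10 and of the muscle-fibre markers 11 of 12 were lower, where 49.6% of all genes were. Of the adipocyte markers 5 of 6 were higher, where 7742 of 15372 genes were. In these lists 0 were called. The erythroid and satellite cell lists were mixed. Of the erythroid markers 5 of 7 were higher, with 1 called, and the near-identical globin genes Hbb-bs and Hbb-bt had −0.81 and −0.58. In mdx vehicle library 1 and mdx GTx-026 library 1, Hbb-bs was at 5.06 and 19.6 CPM and Hbb-bt at 4.29 and 16.6 CPM. These lay below all wildtype libraries, while Hbb-b1, at 91.6 and 323 CPM there, lay above them. In mdx GTx-026 library 2 both Hbb-b1 (374 CPM) and Hbb-bs (253 CPM) were high. Whether Hbb-b1 differed by expression, by gene copy or by placing of reads was not tested. Of the satellite cell and regenerating fibre markers 6 of 9 were higher, with 1 called, and the perinatal myosin Myh8 had −0.23. The 2 of 12 lymphoid markers with values summed to 148 CPM in mdx vehicle library 1 and to 4.00 to 50.9 CPM in the 8 others. The 12 muscle-fibre markers had medians of −0.76, −0.25 and −0.49 in mdx vehicle libraries 1 to 3. In mdx GTx-026 libraries 1 to 3 these medians were 0.07, −0.27 and −0.57. The part of these differences in the levels of the cycle enzymes was not tested.

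Of the 9 enzymes, 7 kept close to one another across the libraries. Each was set against the median of the other 8 members, with every gene relative to its mean over the 9 libraries. Fh1 then differed by 0.0388 on average over the libraries (log2, mean absolute difference), Cs by 0.0599 and Mdh2 by 0.0821. Suclg1, Dlst, Ogdh and Idh3a differed by 0.10 to 0.12. Suclg2 differed by 0.27 and Idh2 by 0.58. With every gene relative to its wildtype mean instead, Suclg2 lay at 0.07, 0.06 and −0.14 from the median of the other 8 in wildtype. It was at −0.17, −0.62 and −0.46 in mdx vehicle and at −0.78, −0.60 and −0.41 in mdx GTx-026. It lay below wildtype in all 6 mdx libraries, by the smallest margin in mdx vehicle library 1. In mdx vehicle library 2, where the median of all 9 was −0.04, Suclg2 lay at −0.62 from the other 8. Since Suclg2 was set apart by looking at its values, this is a description and not a test.

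The beta subunit of succinyl-CoA ligase comes in 2 forms, and Sucla2 (chromosome 14, 73552786 to 73596144), which makes the enzyme form ATP, is the other one. Sucla2 was at 315, 356 and 414 CPM in wildtype, at 200, 373 and 288 CPM in mdx vehicle and at 309, 250 and 355 CPM in mdx GTx-026. The groups overlapped, and mdx vehicle differed from wildtype by −0.37 on the log2 scale (SE 0.24, limma adjusted p = 0.538). The log2 ratio of Suclg2 to Sucla2, set to a wildtype mean of 0, was at −0.05, 0.08 and −0.03 in wildtype. It was at −0.24, −0.71 and −0.54 in mdx vehicle and at −0.78, −0.31 and −0.47 in mdx GTx-026. All 6 mdx libraries had a lower ratio than all 3 wildtype libraries, with mean differences of −0.49 (mdx vehicle) and −0.52 (mdx GTx-026). The pair was chosen with earlier results known. A two-sided exact permutation test gave p = 0.1 for each, the smallest that 3 against 3 libraries allow, and 0.45 after Benjamini-Hochberg adjustment over the 9 tests of such ratios, so the design cannot reach the threshold. The ratio of Suclg2 to the shared subunit Suclg1 overlapped between wildtype and both mdx groups.

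**Figure D3:**
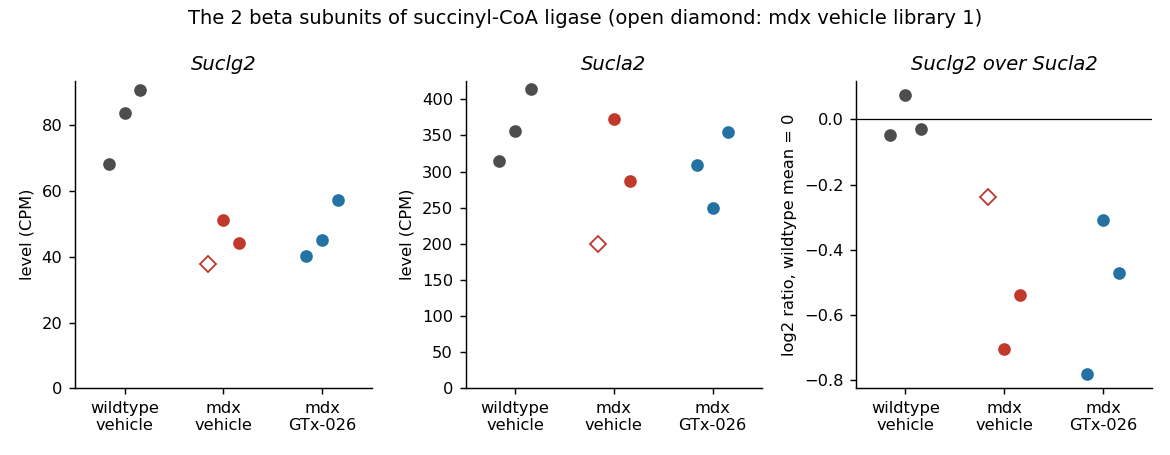
Levels in CPM (axes from 0) of Suclg2 and Sucla2, the GTP-forming and the ATP-forming beta subunit of succinyl-CoA ligase, and the log2 ratio of Suclg2 to Sucla2 with the wildtype mean at 0, with a point for each library by group. The open diamond is mdx vehicle library 1; all 6 mdx libraries lie at −0.24 or lower in the ratio and the wildtype libraries at −0.05 to 0.08.

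Idh2 was high and low in much the same libraries as the slow-fibre genes. The slow-fibre list lay at a median of −1.44, 1.49 and −0.03 in the wildtype libraries, where Idh2 was at 188, 534 and 481 CPM. In mdx GTx-026 it lay at −1.70, −0.59 and 1.77, where Idh2 was at 137, 253 and 596 CPM. The 4 libraries with the lowest Idh2 were also the 4 with the lowest slow-fibre genes, and mdx GTx-026 library 3 was highest in both. This is a description over 9 libraries that share their scaling. Myh7, the slow myosin heavy chain and an abundant gene of that list, was at 316, 3912 and 1127 CPM in wildtype, at 65.1, 3120 and 2468 CPM in mdx vehicle and at 341, 742 and 5873 CPM in mdx GTx-026. The other 8 enzymes did not span that range: in wildtype library 1 and mdx GTx-026 library 1, both low in slow-fibre genes, the median of all 9 was −0.27 and −0.23.

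**Figure D4:**
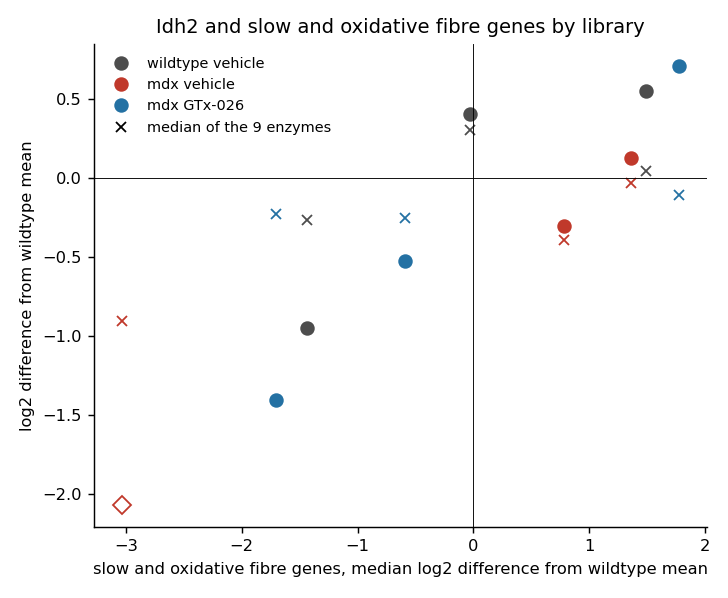
The level of Idh2 in each library as log2 difference from the wildtype mean (vertical axis; circles, with an open diamond for mdx vehicle library 1) against the median log2 difference of 10 genes of slow and oxidative fibres (horizontal axis), and the median of the 9 enzymes as crosses. Idh2 is lowest in mdx vehicle library 1, where the slow-fibre median is lowest (−3.04), and highest in mdx GTx-026 library 3, where it is highest (1.77), while the crosses stay between −0.39 and 0.30 outside mdx vehicle library 1 (−0.91).

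The comparison of mdx GTx-026 against mdx vehicle asks what the drug changed in mdx muscle. The 9 means were all higher in the treated group, under all 3 scalings. Under the rescaling used here 51.1% of all genes were higher. The log2 fold changes ran from 0.09 (Suclg2) to 0.36 (Mdh2) with a median of 0.29, beside 0.0049 over all genes. Cs was at 743 ± 22.0 CPM against 612 ± 151 CPM and Mdh2 at 582 ± 14.3 CPM against 470 ± 149 CPM (SD, n = 3 each). By limma with Benjamini-Hochberg adjustment 0 of the 9 passed, where 0.013% of all genes did, and 0 had an unadjusted p under 0.05, where 1.97% of all genes were higher at that level. The groups overlapped for all 9, where 3.67% of all genes were higher without overlap.

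Without mdx vehicle library 1 the treated and untreated mdx groups were close. The median of the 9 was 0.02, with 5 means higher, beside 50% of all genes, and 4 lower (Idh2, Suclg1, Suclg2 and Fh1). None of the 9 passed by limma or had an unadjusted p under 0.05, and 0.00651% of all genes passed. Cs had the highest log2 fold change, 0.11 (95% interval −0.36 to 0.57), and Idh2 the lowest, −0.33 (−1.69 to 1.04). For Suclg2, the difference between the groups was 0.09 with all libraries (95% interval −0.31 to 0.49) and −0.03 without that library (−0.46 to 0.40). A value that missed the threshold does not show that the treated and untreated groups were alike.

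In mdx GTx-026 against wildtype vehicle the 9 means were all lower in the treated mdx group, but under the authors' scaling those of Ogdh (0.07), Dlst (0.03) and Mdh2 (0.05) were higher. Of all genes 49.6% were lower under the rescaling used here. The median was −0.16, beside 0.0018 over all genes; it was −0.046 under the authors' scaling, −0.31 without wildtype library 1 and −0.043 without wildtype library 3. Suclg2 was at 47.4 ± 8.73 CPM against 80.8 ± 11.6 CPM (SD, n = 3 each), a log2 fold change of −0.76 (SE 0.18, 95% interval −1.16 to −0.36), lower in 3 of 3 libraries. Its limma adjusted p was 0.0791, and 0.0544 without mdx vehicle library 1, which is in neither group but enters the pooled spread and the rescaling. Over the 20 alternatives it ran from 0.0520 to 0.298. By limma with Benjamini-Hochberg adjustment 0 of the 9 passed, where 1.48% of all genes did, and 2.43% without mdx vehicle library 1. Suclg2 alone had an unadjusted p under 0.05, where 5.11% of all genes were lower at that level. Suclg1 and Suclg2 did not overlap with wildtype, which was the case for 9.23% of all genes on the lower side. Suclg1 had −0.41 (SE 0.24, adjusted p = 0.564), and the 7 others lay between −0.41 (Idh2) and −0.04 (Ogdh). Both mdx groups are set against the same 3 wildtype libraries, so the low Suclg2 in one comparison does not stand as a check of the other.

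Other genes of the cycle had differences like those of the 9. In mdx vehicle against wildtype the 4 further matrix genes examined were all lower, with log2 fold changes of −0.47 and −0.31 for the other subunits of isocitrate dehydrogenase (Idh3b and Idh3g), −0.39 for the lipoamide dehydrogenase Dld and −0.37 for Sucla2. Of the succinate dehydrogenase subunits and assembly factors all 6 with values were lower, where 48.9% of all genes were. The iron-sulfur subunit Sdhb led with −0.78 (SE 0.30, limma adjusted p = 0.352). The flavoprotein Sdha had −0.45 and the membrane anchors Sdhc and Sdhd −0.23 and −0.37. None of these genes passed the threshold. Of them 1 (Sdhb) had an unadjusted p under 0.05, where 6.36% of all genes were lower at that level. Sdhb did not without mdx vehicle library 1 (−0.43). Without mdx vehicle library 1 the 4 matrix genes had a median of −0.14, with 0 higher, and the 6 succinate dehydrogenase genes −0.17, with 1 higher. In mdx GTx-026 against mdx vehicle all 4 and all 6 were higher (51.1% of all genes), with medians of 0.25 and 0.18. Without that library 2 of the 4 and 2 of the 6 were (50% of all genes). Either way 0 passed by limma or had an unadjusted p under 0.05.

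Genes that feed the cycle or draw from it were lower in part. Of 14 genes of pyruvate entry 13 were lower in mdx vehicle, where 48.9% of all genes were, with a median of −0.41. By limma 0 were past the threshold, where 0.338% of all genes were. At an unadjusted p under 0.05, where 6.36% of all genes were lower, there were 2. These were Pdpr (−0.54), a regulator of pyruvate dehydrogenase phosphatase, and pyruvate carboxylase Pcx (−0.78), which refills oxaloacetate. The kinase Pdk1, which switches pyruvate dehydrogenase off, had −0.54 (limma adjusted p = 0.412). In the treated group against mdx vehicle the phosphatase catalytic subunit Pdp1, which switches that complex on, had 0.50 (SE 0.17) and Pcx 0.73, with limma adjusted p values near 1. The E2 component Dlat had 0.35. Without mdx vehicle library 1 the median of the 14 in mdx vehicle against wildtype was −0.24, with 12 lower, where 50.7% of all genes were. Of the 14, 0 were past the threshold or at an unadjusted p under 0.05, where 4.18% of all genes were lower at that level. Pdpr then had −0.34, Pcx −0.47 and Pdk1 −0.50. In the treated group 9 of the 14 were then higher (50% of all genes) instead of 12 (51.1% of all genes). Of the 14, 0 had an unadjusted p under 0.05 there, with 0.39 for Pdp1, 0.42 for Pcx and 0.06 for Dlat.

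The 6 cytosolic counterparts had a median of −0.23 in mdx vehicle against wildtype, with 5 lower. Of all genes 48.9% were lower in that comparison. Cytosolic aspartate aminotransferase (Got1) had −0.88 (SE 0.32, limma adjusted p = 0.321), malic enzyme (Me1) −0.33 and cytosolic malate dehydrogenase (Mdh1) −0.48. Against mdx vehicle the treated group had 0.56 for Got1, 0.39 for Mdh1 and 0.23 for cytosolic isocitrate dehydrogenase (Idh1). Of 18 genes of side reactions 13 were lower in mdx vehicle, among them the branched-chain keto acid dehydrogenase genes Bckdhb (−0.40) and Dbt (−0.39) and the lipoic acid synthase Lias (−0.33), whose product is the cofactor that Dlst carries. In the treated group against mdx vehicle the aspartate-glutamate carrier Slc25a12 had 0.42, mitochondrial aspartate aminotransferase (Got2) 0.43 and Dbt −0.21. Of 11 regulators of mitochondrial genes 9 were lower in mdx vehicle, with −0.31 for Tfam, which packs and transcribes mitochondrial DNA, −0.26 for Gabpa, an ETS factor, and −0.99 for the muscle regulator Perm1 (SE 0.47). In the treated group Perm1 had 0.67, Ppargc1b −0.35 and the mitochondrial deacetylase Sirt3 0.43. In these 3 lists 0 genes passed the threshold in either comparison by limma. In the treated group against mdx vehicle 0 had an unadjusted p under 0.05. In mdx vehicle against wildtype 1, 3 and 1 did, all lower, where 6.36% of all genes were lower at that level. Without mdx vehicle library 1 these counts in mdx vehicle were 0, 0 and 0, where 4.18% of all genes were lower at that level. The medians were then −0.16 for the cytosolic counterparts, −0.20 for the side reactions (from −0.31) and −0.11 for the regulators (from −0.26). Got1 then had −0.57 and Perm1 −0.47. In the treated group Perm1 had 0.13, Got1 0.24, Got2 0.08 and Sirt3 0.06, while Ppargc1b had −0.44. It was the single gene of these lists at an unadjusted p under 0.05, where 305 of all 15372 genes were lower at that level.

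The neighbouring pathways had differences of a like size. All 33 nuclear-encoded respiratory chain subunits (median −0.37) and all 18 fatty acid oxidation enzymes (−0.56) had lower means in mdx vehicle than in wildtype. Of all genes 48.9% were lower. In these lists 0 were past the threshold by limma. At an unadjusted p under 0.05 there were 3 and 6, where 6.36% of all genes were lower at that level, and 1 and 0 without mdx vehicle library 1, where 4.18% were. In mdx vehicle library 1 the respiratory chain lay at −0.86 and fatty acid oxidation at −1.29, and the cycle enzymes at −0.91. In mdx vehicle library 2 the same lists lay at 0.07, −0.14 and −0.04. Without library 1 their medians against wildtype were −0.15, −0.21 and −0.19. In mdx GTx-026 against mdx vehicle 33 of 33 and 17 of 18 were higher (51.1% of all genes), but 27 and 4 without library 1 (50% of all genes). Of these genes 0 were past the threshold by limma. At most 1 was at an unadjusted p under 0.05, where 1.97% of all genes were higher at that level with all libraries. The lists were not tested against each other.

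**Figure D5:**
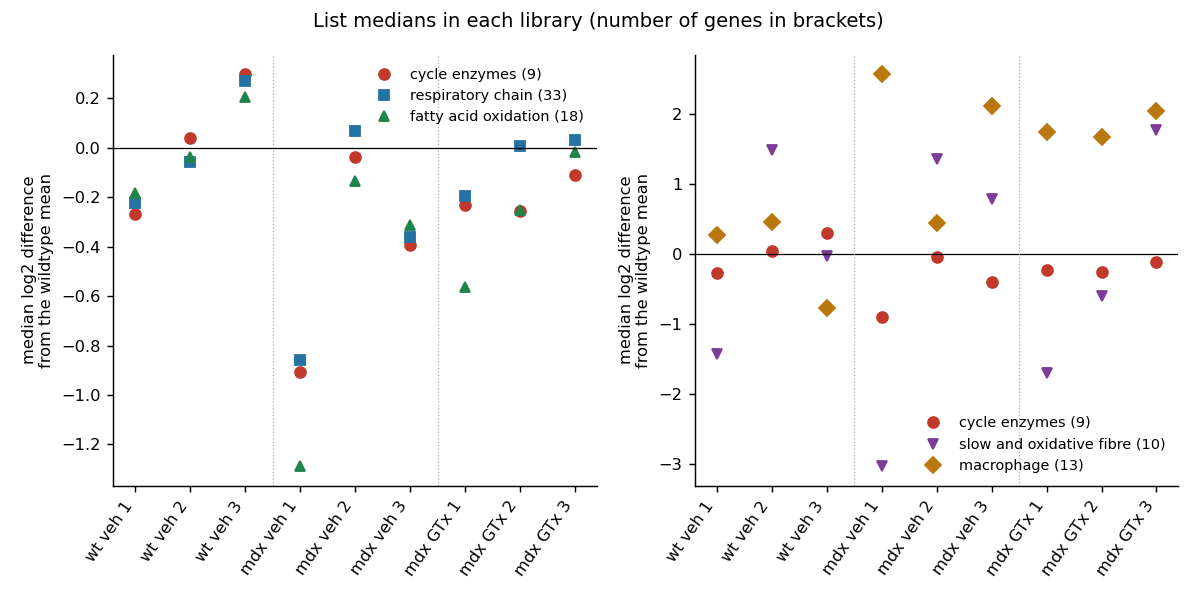
Median log2 difference from the wildtype mean (vertical axes) in each of the 9 libraries, on the left for the 9 cycle enzymes, 33 respiratory chain subunits and 18 fatty acid oxidation enzymes, and on the right for the cycle enzymes, 10 genes of slow and oxidative fibres and 13 macrophage markers. Each list of energy metabolism is lowest in mdx vehicle library 1 (−0.91, −0.86 and −1.29), where the slow-fibre genes are also lowest (−3.04) and the macrophage markers highest (2.57).

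The genes whose levels over the 9 libraries were most like the median profile of the 9 enzymes were sought among 4654 other genes. These were at 5 CPM or more on average and had an SD over the libraries at least 0.75 times that of the profile. Idh3b was first, with a mean absolute difference of 0.0486 on the log2 scale, and was followed by Ttc7b (0.0536), Gbas (0.0564), the complex I subunit Ndufs1 (0.0579) and carnitine acetyltransferase Crat (0.0636). The likeness rests on 9 libraries in which mdx vehicle library 1 holds the largest deviation.

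The authors' deposited table compares the same groups record by record, with p-values not adjusted for multiple tests. Its 22 records of the 9 enzymes all had a ratio of wildtype to mdx vehicle above 1. A p under 0.05 in the authors' deposited table was held by 2 of the 22, both records of Suclg2 (ratios of 1.57 and 1.68, p = 0.00546 and 0.00692, tests as the authors computed them), where 6.01% of all records did. Between wildtype and mdx GTx-026 the authors' deposited table had a single such record, again Suclg2 (ratio 1.53, p = 0.0433), where 9.32% of all records did. Between mdx vehicle and mdx GTx-026 it had 0 of 22, the lowest p being 0.140, where 1.95% of all records did.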

How the data were processed

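Per the file headers, the deposited table holds a scaled signal for each sequence record in 9 libraries, and the authors' group means (also signal), the ratio of those means and an unadjusted p-value for each pair of groups. The submitters' processing notes name, with no role or order, the build GRCm38.p3 and the tools HTSeq 0.6.1p1, TopHat2 2.0.13, DESeq2 1.6.3, Bowtie2 2.2.4 and SAMtools 0.1.19. Annotation and use of strand are not given in the sources used here. Column names give a group and a number, so each was assigned to its group only. Records were summed by symbol; 4 without a symbol (0.000646% of the total) were left out. Genes with a record above 0 in all libraries were tested (15372 of 15593). Signals were near whole multiples of 1 step per library, which gave the listed reads, but were not accepted as counts, so no count model was run. Values were rescaled to CPM with an unweighted trimmed mean of log ratios (30% trimmed on the ratio, 5% on the level). Tests used limma 3.58.1 in R 4.3.3 on log2(CPM + 1) with all 9 libraries, a trended prior variance, 6 residual and 3.54 prior degrees of freedom, two-sided, with Benjamini-Hochberg adjustment over all tested genes and a threshold of 0.05; the steps were tested on simulated data. Named were all 9 members, 4 further cycle genes and the succinate dehydrogenase subunits, and in each of 4 pathway lists the 3 genes of smallest p in each of the first comparisons; Myh7 was named as an abundant marker. One further gene of the cycle is not reported here. The members and lists were chosen with earlier results of these data known.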

Additional observations from a re-analysis of the deposited data

How the results depend on the processing

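All 9 enzymes had lower means in mdx vehicle than in wildtype under each of the 20 alternatives, with medians from −0.64 to −0.16. Their medians ranged from 0.021 to 0.48 in mdx GTx-026 against mdx vehicle and from −0.31 to −0.043 in mdx GTx-026 against wildtype. The genes past the limma threshold numbered 52, 2 and 227 in mdx vehicle against wildtype, mdx GTx-026 against mdx vehicle and mdx GTx-026 against wildtype. They were 332, 96 and 509 with no filter on low values, and 5, 1 and 421 in fits of only the groups compared. Leaving out 1 library gave 5 to 93, 0 to 2 and 45 to 374. For mdx GTx-026 against mdx vehicle the authors' scaling gave 4 and a pseudocount of 5 CPM gave 1. The authors' scaling without mdx vehicle library 1, chosen after seeing the data, gave 0 there (503 at an unadjusted p under 0.05) and 371 for mdx GTx-026 against wildtype. The counts of 0 without mdx vehicle library 3 or mdx GTx-026 library 1 stood beside 875 and 447 genes at an unadjusted p under 0.05. Enzymes below 0 in mdx GTx-026 against mdx vehicle ranged from 0 to 4 when 1 library was left out (2 without mdx GTx-026 library 3) and numbered 1 in the added setting. Against wildtype they ranged from 5 (without wildtype library 3) to 9. Signs of single enzymes turned as follows. Leaving out 1 library in turn gave, for mdx GTx-026 against mdx vehicle, −0.33 to 0.84 for Idh2, −0.0061 to 0.48 for Suclg1, −0.049 to 0.20 for Suclg2 and −0.0019 to 0.51 for Fh1, each lowest without mdx vehicle library 1, or without mdx GTx-026 library 3 for Suclg2. Idh2 had −0.21 without the latter and −0.24 in the added setting, and Suclg2 −0.026 without the former. Against wildtype the ranges were −0.96 to 0.090 for Idh2 (highest without mdx GTx-026 library 1), and −0.28 to 0.036 for Idh3a, −0.25 to 0.11 for Ogdh, −0.22 to 0.049 for Dlst and −0.29 to 0.16 for Mdh2 (all highest without wildtype library 3). Ogdh had 0.065 without mdx GTx-026 library 2. The authors' scaling gave 0.068, 0.027 and 0.048 for Ogdh, Dlst and Mdh2, with and without mdx vehicle library 1. Except where a setting has fewer libraries or more genes by construction, the cause was not tested. No paired analysis was possible because the columns' numbers only name libraries and pair none across groups. With 3 libraries a group, the 95% interval of Cs in mdx vehicle against wildtype ran from −0.96 to 0.03. It is not adjusted for the number of genes tested, so larger changes could also go uncalled. Suclg2, with an interval of −1.25 to −0.45, was not called under the main setting.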

Other observations

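Nnt, the mitochondrial transhydrogenase that makes NADPH from NADH, was chosen after its values were seen because it varied more between libraries than any of the 9 enzymes. It was at 22.7, 310 and 48.7 CPM in wildtype, at 53.2, 214 and 157 CPM in mdx vehicle and at 91.4, 107 and 350 CPM in mdx GTx-026. High and low libraries were found in each group, and wildtype alone held the lowest of all 9 libraries and the second highest.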
